A study of Mus musculus with 12 samples.

Results

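Cultured mouse intestinal stromal cells labelled as a Tgfbr2 knockout were set against cells with intact Tgfbr2, both given vehicle and no added ligand, so that the comparison asks what knockout of the receptor does at the signalling level of the culture itself. It uses 6 of the 12 libraries of the series, the 3 of Tgfbr2KO_Vehicle (titled Vehicle_Tgfbr2KO in the labels) and the 3 of Vehicle. A gene was tested if 3 or more of these 6 libraries had 1 FPKM or more, which kept 12238 of the 25203 genes in the deposited table. Vehicle cells are primary Pdgfra-lo-H2B-GFP cultures, cells with low output of a nuclear GFP reporter at Pdgfra, and Tgfbr2KO_Vehicle cells carry the Tgfbr2 knockout by their label. Whether the knockout cells bear the same reporter is not stated, and the labels name the cell type of all libraries mesenchyme. The other 6 libraries are of the same 2 genotypes given exogenous TGFB1 (Tgfbr2KO_TGFB1, titled TGFB1_KO, and TGFB1), and they enter the fit through the shared estimate of the spread and as levels set alongside. The labels used here do not give the age of the animals, the driver or the deleted part of the knockout, the dose, the time in culture, or the origin of the 3 libraries of a group, whose names carry a further set of 3 numbers, shared by all 4 groups, that is not explained. If they do not stem from separate animals, the p-values given here measure only a spread between libraries that may be technical.

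TGF-beta ligands are secreted in a latent form, are freed at the cell surface by integrins and proteases, and bind TGFBR2, a serine/threonine kinase that then phosphorylates the type I receptor TGFBR1. TGFBR1 phosphorylates SMAD2 and SMAD3, which enter the nucleus with SMAD4 and, in fibroblasts, raise transcription of collagens, matrix cross-linking enzymes and contractile genes and hold down several proteases and inflammatory genes. In the intestine, Pdgfra-low stromal cells lie around the crypts and secrete WNT agonists and BMP antagonists that maintain the stem cells.

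Among genes that rose in the libraries labelled knockout were the matrix proteases Mmp3 and Mmp13, the cornified envelope genes Sprr1a and Ivl, Crct1 of the epidermal differentiation complex, the proliferins Prl2c2 and Prl2c3 and the BMP response genes Id1 and Id3, with Crct1 changing most. Among genes that fell, mostly by under 2-fold, were those of collagen and elastic matrix and its folding (Col6a3, Loxl1, Serpinh1), of TGF-beta storage (Ltbp4), of amino acid supply (Aldh18a1, Mthfd2, Slc7a5) and the matrix protease Adamts12. Collagen I and III genes lay below every Vehicle library in all 3 Tgfbr2KO_Vehicle libraries, but did not pass the test.

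Expression is given as FPKM, fragments scaled to transcript length and library size, and n = 3 libraries per group throughout. Log2 changes are differences between Tgfbr2KO_Vehicle and Vehicle means of log2(FPKM + 1), given ± their standard error (SE) from limma, and on this scale changes of low genes come out too small. A gene was called where its adjusted p was under 0.05 (limma, Benjamini-Hochberg over the 12238 genes), and rose, fell, higher and lower are used of single genes only where they were called. Of the 12238 tested genes, 169 were called (1.38%), 69 of them higher (0.564%) and 100 lower (0.817%) in Tgfbr2KO_Vehicle. Counts of called list members given below stand against these shares. At least 2-fold changes were made by 27 of the called genes, 19 of them higher and 8 lower. The median log2 change was 0.71 for the genes called higher and -0.46 for those called lower. Called or not, 14.9% of all tested genes had their 3 Tgfbr2KO_Vehicle libraries above all 3 Vehicle libraries, and 15.8% had them below. The calls rest on the spread of all 12 libraries and on each of the 6. The 12 are not independent, since deviations from the group means correlated between same-numbered libraries of 1 genotype, at 0.611, 0.237 and 0.538 between Tgfbr2KO_TGFB1 and Tgfbr2KO_Vehicle and at 0.415, 0.473 and 0.423 between TGFB1 and Vehicle. Across genotype the values were 0.430, 0.183 and 0.628 between Tgfbr2KO_TGFB1 and Vehicle. They were 0.365, -0.00498 and 0.289 between Tgfbr2KO_TGFB1 and TGFB1, and 0.362, -0.0125 and 0.279 between Tgfbr2KO_Vehicle and TGFB1. With the correlation within 1 genotype estimated in limma (0.390), 164 genes were called, 139 of the 169 among them. With the replicate number as a block over all 12 libraries, limma called 1911 genes, all 169 among them. A limma fit to the 6 vehicle libraries alone called 0 genes, with 2682 at an unadjusted p under 0.05 against 2727 in the fit to 12. Those 2727 are 22.3% of the tested genes. Leaving out Tgfbr2KO_Vehicle replicate 1 or Vehicle replicate 3 left 0 calls in the limma fit, with 1541 and 1637 genes at an unadjusted p under 0.05. Leaving out Vehicle replicate 1 left 4 calls, Tgfbr2KO_Vehicle replicate 3 left 7, Tgfbr2KO_Vehicle replicate 2 left 11 and Vehicle replicate 2 left 86. All 169 called genes had no overlap between the groups. Of those called higher, 5 had all 3 Vehicle libraries under 1 FPKM and met the filter only through Tgfbr2KO_Vehicle, and 1 called lower met it only through Vehicle.

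**Figure D1:**
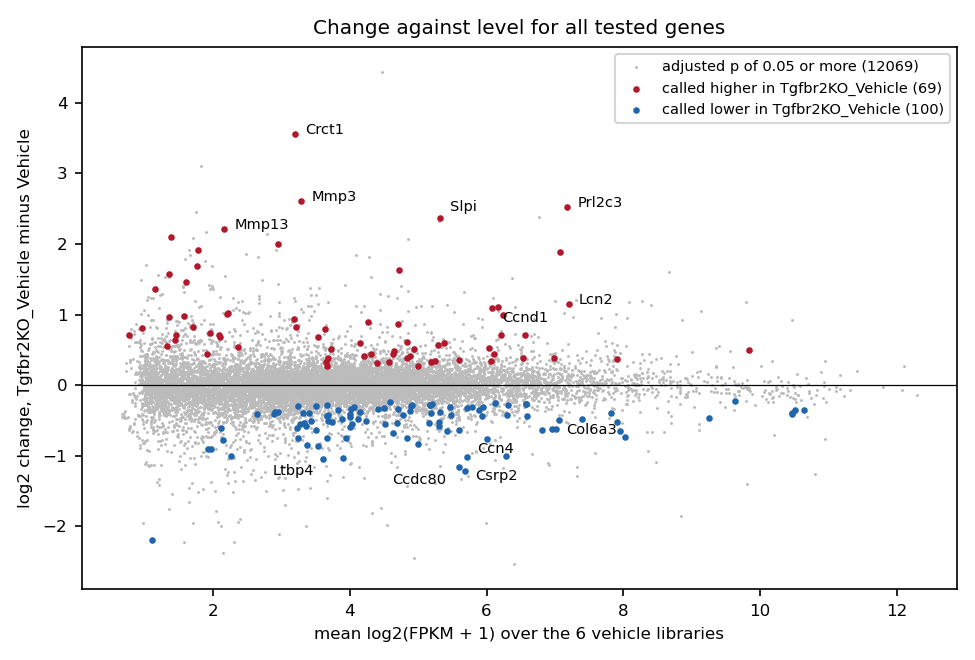
Each point is 1 of the 12238 tested genes, with the mean level of the 6 vehicle libraries on the x axis as log2(FPKM + 1) and the log2 change, Tgfbr2KO_Vehicle minus Vehicle, on the y axis, and with the 169 called genes in colour. The 69 genes called higher reach a log2 change of 3.56 (Crct1), while 8 of the 100 called lower passed a change of 1 log2 unit.

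Libraries were alike in total, with summed FPKM between 498669 and 518802 and a relative depth between 0.859 and 1.04 of Vehicle replicate 1, so no group stood apart by depth. Across genes the libraries correlated at 0.973 to 0.986 within Tgfbr2KO_Vehicle and at 0.969 to 0.981 within Vehicle. The pair least alike was Tgfbr2KO_Vehicle replicate 1 and Vehicle replicate 3, at 0.933. The labelled cell type was checked against 15 fibroblast markers, whose summed FPKM was 3627, 4790 and 5003 in Tgfbr2KO_Vehicle and 6923, 6215 and 10613 in Vehicle, so the fibroblast sum lay below every Vehicle library in each Tgfbr2KO_Vehicle library. Most of that difference was in Col1a1, Col1a2 and Col3a1, and the other 12 markers summed to 2330, 2379 and 2581 FPKM in Tgfbr2KO_Vehicle against 2483, 2365 and 2680 FPKM in Vehicle, with overlap. Of the 13 tested markers 10 had a negative log2 change, the median was -0.685 and 0 were called. In all 3 Tgfbr2KO_Vehicle libraries 4 lay below every Vehicle library and 2 above, against 15.8% and 14.9% of all tested genes. Pdgfra, whose values are given further on, was among those below. A pair of the markers lay above every Vehicle library without a call, S100a4, a calcium-binding protein, at 282, 284 and 285 FPKM in the Tgfbr2KO_Vehicle libraries and 109.9, 225 and 126 FPKM in Vehicle (adjusted p = 0.0877), and Pdpn, the membrane protein podoplanin, at 304, 244 and 221 FPKM in Tgfbr2KO_Vehicle against 167, 164 and 126 FPKM in Vehicle (adjusted p = 0.101). In bulk RNA, fewer cells of a type and less RNA per cell cannot be told apart. Sums over 16 epithelial markers were 69.9, 9.28 and 11.9 FPKM in Tgfbr2KO_Vehicle against 6.32, 9.95 and 7.43 FPKM in Vehicle, so 1 library of 6 stood apart, Tgfbr2KO_Vehicle replicate 1. In that library Krt8, a keratin of simple epithelia, was at 25.8 FPKM, against 0 and 0.0542 FPKM in the other Tgfbr2KO_Vehicle libraries and 0 in all 3 Vehicle libraries. The epithelial adhesion genes Epcam and Cdh1 had 1.02 and 0.989 FPKM in that library and 0.0915 FPKM or less in the other 5. Sums over 16 leukocyte markers ranged from 355 to 536 FPKM in Tgfbr2KO_Vehicle and from 44.5 to 766 FPKM in Vehicle, with overlap and Vehicle replicate 2 lowest. Lyz2, a lysozyme of macrophages, had 107, 304 and 241 FPKM in Tgfbr2KO_Vehicle against 372, 24.8 and 547 FPKM in Vehicle. Sums over 12 endothelial markers were at most 20.5 FPKM in any of the 6 libraries.

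**Figure D2:**
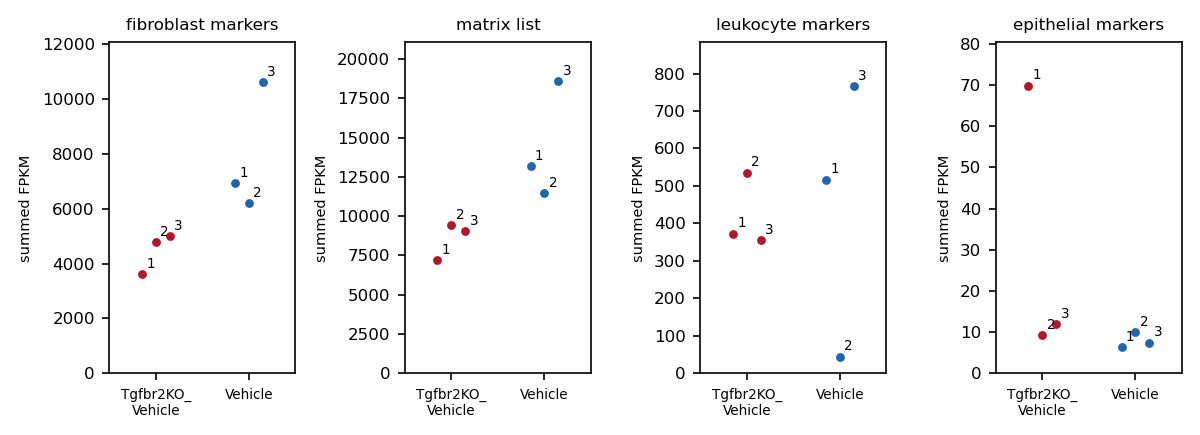
Summed FPKM of 4 gene lists in each of the 6 libraries, on linear y axes from 0, with Tgfbr2KO_Vehicle left of Vehicle and 1 point per library beside its replicate number. Fibroblast and matrix sums of each Tgfbr2KO_Vehicle library lie below those of every Vehicle library, and the epithelial sum of Tgfbr2KO_Vehicle replicate 1 (69.9 FPKM) stands above the other 5 libraries.

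The targeted gene itself, Tgfbr2, had 27.0, 35.2 and 41.9 FPKM in the Tgfbr2KO_Vehicle libraries and 48.0, 38.2 and 78.8 FPKM in Vehicle. The groups overlapped, since Tgfbr2KO_Vehicle replicate 3 was above Vehicle replicate 2, and the log2 change of -0.61 ± 0.30 was not called (adjusted p = 0.256). Between same-numbered libraries the Tgfbr2KO_Vehicle value was the lower each time. With the replicate number as a block over all 12 libraries, the adjusted p in limma was 0.0437. RNA was counted over the whole gene and the labels do not say which part was deleted, so this level does not check the knockout. With added ligand, Csrp2, which encodes a LIM-domain protein of smooth muscle cells, had 38.5, 56.1 and 39.8 FPKM in Tgfbr2KO_TGFB1 against 424, 354 and 402 FPKM in TGFB1, so the knockout libraries with ligand lay below every intact Vehicle library (64.1 to 86.0 FPKM). Csrp2 was picked for its fall from Vehicle to Tgfbr2KO_Vehicle, so its order against Vehicle does not check the knockout.

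Among 19 genes of TGF-beta receptors, ligands and their activators, 17 were tested. Of these 0 were called higher and 2 lower, against 0.564% and 0.817% of all tested genes. Their median log2 change was -0.03 against 0.00 over all tested genes. Ltbp4, a matrix protein that tethers latent TGF-beta, had 6.44, 8.01 and 8.10 FPKM in Tgfbr2KO_Vehicle against 14.8, 13.996 and 21.3 FPKM in Vehicle. It fell by 1.04 ± 0.20 on the log2 scale (adjusted p = 0.0418), with no overlap. Itgb5, the beta subunit of an integrin that can activate latent TGF-beta, had 80.004, 82.5 and 82.3 FPKM in the Tgfbr2KO_Vehicle libraries and 124, 102 and 107 FPKM in Vehicle. It fell by 0.43 ± 0.07 on the log2 scale (adjusted p = 0.0293), without overlap. Ltbp3, a relative of Ltbp4, had 40.2, 41.4 and 38.6 FPKM in Tgfbr2KO_Vehicle against 52.5, 47.6 and 57.5 FPKM in Vehicle, without overlap and without a call (adjusted p = 0.0851). The type I receptor gene Tgfbr1 had 12.3 to 14.7 FPKM in the Tgfbr2KO_Vehicle libraries and 14.5 to 18.02 FPKM in Vehicle, with overlap. Tgfbr3, a coreceptor, had 16.3, 30.6 and 30.4 FPKM in Tgfbr2KO_Vehicle against 27.1, 31.3 and 34.9 FPKM in Vehicle, also with overlap. The ligand genes overlapped as well. Tgfb1 had 31.9 to 33.1 FPKM in the Tgfbr2KO_Vehicle libraries and 25.1 to 32.3 FPKM in Vehicle, while Tgfb2 had 4.59 to 8.94 FPKM in Tgfbr2KO_Vehicle against 4.93 to 7.73 FPKM in Vehicle. Tgfb3 had 25.1 to 47.6 FPKM in the Tgfbr2KO_Vehicle libraries and 32.3 to 39.1 FPKM in Vehicle. Libraries of both genotypes thus held RNA of all 3 ligands.

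Of 19 SMADs, corepressors and feedback inhibitors, 0 were called by limma and 7 had an unadjusted p under 0.05, with a median log2 change of 0.05. Over all tested genes 22.3% had an unadjusted p under 0.05 in limma. Among 24 early TGFB-SMAD target genes, 0 were called by limma and 10 had an unadjusted p under 0.05. In that list 9 lay below and 1 above every Vehicle library in all 3 Tgfbr2KO_Vehicle libraries, against 15.8% and 14.9% of all tested genes. The list's median log2 change was -0.08. Its members differed among themselves. Smad7, the inhibitory SMAD that feeds back on the receptors, had 38.7, 27.6 and 21.8 FPKM in Tgfbr2KO_Vehicle against 24.8, 24.8 and 14.1 FPKM in Vehicle, with overlap. Ccn2, a matricellular factor that TGF-beta and YAP both drive, had 799, 686 and 555 FPKM in the Tgfbr2KO_Vehicle libraries and 803, 739 and 455 FPKM in Vehicle, with overlap and a log2 change of 0.06 ± 0.34. Pmepa1, a membrane protein that sequesters SMAD2 and SMAD3, had 27.1, 28.6 and 27.9 FPKM in Tgfbr2KO_Vehicle against 41.5, 35.2 and 37.6 FPKM in Vehicle, without overlap and without a call (-0.43 ± 0.11, adjusted p = 0.0818). Nox4, an oxidase that produces hydrogen peroxide, had 2.35, 2.95 and 2.92 FPKM in the Tgfbr2KO_Vehicle libraries and 3.56, 3.23 and 4.05 FPKM in Vehicle (adjusted p = 0.185). A wide spread was seen for Tgfbi, a secreted matrix adhesion protein, at 3.53, 14.9 and 30.2 FPKM in Tgfbr2KO_Vehicle against 41.7, 52.9 and 156 FPKM in Vehicle. Its groups did not overlap, but the log2 change of -2.44 ± 0.92 was not called (adjusted p = 0.167). Among called genes outside these lists, Tgfb1i1, a focal adhesion LIM protein named for its induction by TGF-beta, had 68.8, 72.5 and 71.0 FPKM in the Tgfbr2KO_Vehicle libraries and 88.0, 86.8 and 84.3 FPKM in Vehicle, and fell by 0.28 ± 0.05 on the log2 scale (adjusted p = 0.029).

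Many matrix genes lay below the Vehicle libraries together but seldom passed the test. Of 34 genes of fibrillar collagens and associated matrix, 33 were tested, 1 was called lower and 0 higher. In all 3 Tgfbr2KO_Vehicle libraries 19 were below every Vehicle library, against 15.8% of all tested genes. The median log2 change of the list was -0.70, against 0.00 over all tested genes, and 29 of the 33 had a negative log2 change. Col6a3, which encodes a chain of the microfibrillar collagen VI, had 102, 110 and 97.1 FPKM in Tgfbr2KO_Vehicle against 152, 158 and 169 FPKM in Vehicle. It fell by 0.63 ± 0.06 on the log2 scale, and its adjusted p of 0.00984 was, with that of Ifi209, the smallest of any gene. Col1a1, a chain of collagen I, had 845, 1395 and 1329 FPKM in the Tgfbr2KO_Vehicle libraries and 2546, 2165 and 3881 FPKM in Vehicle. No Tgfbr2KO_Vehicle library reached a Vehicle library, but the log2 change of -1.26 ± 0.30 was not called (adjusted p = 0.0648). Col1a2, the other chain of collagen I, had 326, 705 and 735 FPKM in Tgfbr2KO_Vehicle against 1259, 1076 and 2314 FPKM in Vehicle (-1.40 ± 0.45, adjusted p = 0.122). Col3a1, the collagen III chain, had 126, 312 and 358 FPKM in the Tgfbr2KO_Vehicle libraries and 635, 610 and 1738 FPKM in Vehicle (-1.85 ± 0.62, adjusted p = 0.139). The same 2 libraries were at the ends for these 3 collagens, Tgfbr2KO_Vehicle replicate 1 lowest and Vehicle replicate 3 highest. Col5a1, a chain of the collagen that nucleates fibrils, had 119, 151 and 141 FPKM in Tgfbr2KO_Vehicle against 267, 204 and 349 FPKM in Vehicle, just short of a call (adjusted p = 0.0525). Fn1, fibronectin, had 793, 986 and 1003 FPKM in the Tgfbr2KO_Vehicle libraries and 1447, 1270 and 1838 FPKM in Vehicle (adjusted p = 0.0858). Postn, the matricellular protein periostin, had 61.8, 127 and 134 FPKM in Tgfbr2KO_Vehicle against 285, 155 and 355 FPKM in Vehicle (adjusted p = 0.115). All 3 were without overlap. Eln, elastin, had 0.160, 0.647 and 0.941 FPKM in Tgfbr2KO_Vehicle against 2.32, 1.35 and 10.8 FPKM in Vehicle (adjusted p = 0.191). Eln was under 1 FPKM in all 3 Tgfbr2KO_Vehicle libraries and met the filter only through Vehicle, so its order was partly set by the filter. Bgn, the small proteoglycan biglycan, differed little, with 1101 to 1242 FPKM in the Tgfbr2KO_Vehicle libraries and 1245 to 1356 FPKM in Vehicle. Fibroblast markers overlap this list, and the fibroblast sum moved with it, but overlapped between the groups without the collagen I and III genes that both hold, as given above.

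Outside the list, Ccdc80, Ccn4, Creb3l1 and Crispld2 were among the 15 largest called falls. Ccdc80, a secreted matrix-associated protein, had 26.7, 33.0 and 34.4 FPKM in Tgfbr2KO_Vehicle against 59.8, 64.5 and 92.9 FPKM in Vehicle, and fell by 1.16 ± 0.17 on the log2 scale (adjusted p = 0.0248). Ccn4, a matricellular protein of the CCN family, had 27.6, 39.9 and 42.1 FPKM in the Tgfbr2KO_Vehicle libraries and 79.4, 69.2 and 73.3 FPKM in Vehicle, and fell by 1.02 ± 0.14 on the log2 scale (adjusted p = 0.0239). For both genes each Tgfbr2KO_Vehicle library was well below every Vehicle library. Creb3l1, a transcription factor released from the endoplasmic reticulum membrane that activates collagen and secretory genes, had 41.2, 63.1 and 60.5 FPKM in Tgfbr2KO_Vehicle against 110, 96.1 and 122.7 FPKM in Vehicle (-1.002 ± 0.19, adjusted p = 0.0392). Crispld2, a secreted protein, had 18.5, 25.5 and 25.2 FPKM in the Tgfbr2KO_Vehicle libraries and 39.6, 37.0 and 49.0 FPKM in Vehicle (-0.84 ± 0.16, adjusted p = 0.0392).

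Of 20 genes that fold, trim or cross-link collagen, 2 were called lower and 0 higher, with a median log2 change of -0.30. In all 3 Tgfbr2KO_Vehicle libraries 10 lay below every Vehicle library, against 15.8% of all tested genes. Loxl1, a lysyl oxidase that cross-links elastin, had 106, 118 and 110 FPKM in Tgfbr2KO_Vehicle against 167, 147 and 159 FPKM in Vehicle, and fell by 0.50 ± 0.06 on the log2 scale (adjusted p = 0.0239). Serpinh1, the collagen chaperone HSP47, had 1140, 1271 and 1297 FPKM in the Tgfbr2KO_Vehicle libraries and 1563, 1544 and 1760 FPKM in Vehicle, and fell by 0.39 ± 0.07 on the log2 scale (adjusted p = 0.0392). Both changes were under 2-fold, with a narrow spread within each group. Lox, the lysyl oxidase of collagen and elastin, had 61.7, 124 and 154 FPKM in Tgfbr2KO_Vehicle against 231, 212 and 275 FPKM in Vehicle, a larger difference with a wider spread and no call (-1.16 ± 0.30, adjusted p = 0.0802). A pair of further collagen-processing genes that no list held were called and are named after their values were seen. P3h4, a subunit of the collagen hydroxylase complex, had 62.1, 62.9 and 63.2 FPKM in the Tgfbr2KO_Vehicle libraries and 73.5, 73.9 and 76.5 FPKM in Vehicle (-0.25 ± 0.05, adjusted p = 0.0392). Rcn3, a calcium-binding protein of the endoplasmic reticulum, had 183, 212 and 211 FPKM in Tgfbr2KO_Vehicle against 327, 295 and 393 FPKM in Vehicle (-0.73 ± 0.14, adjusted p = 0.0392).

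Collagen is rich in glycine and proline, and ATF4 is the transcription factor that raises genes for the synthesis and uptake of amino acids. Of 22 tested genes of serine and proline synthesis and the ATF4 response, 4 were called lower and 0 higher, and 15 lay below every Vehicle library in all 3 Tgfbr2KO_Vehicle libraries, against 15.8% of all tested genes. The median log2 change was -0.32. Aldh18a1, which catalyses the first step of proline synthesis, had 27.1, 28.4 and 31.03 FPKM in the Tgfbr2KO_Vehicle libraries and 41.3, 38.8 and 46.7 FPKM in Vehicle, and fell by 0.53 ± 0.09 on the log2 scale (adjusted p = 0.0348). Mthfd2, a mitochondrial enzyme of one-carbon metabolism, had 46.4, 53.5 and 55.7 FPKM in Tgfbr2KO_Vehicle against 66.6, 64.2 and 67.7 FPKM in Vehicle, and fell by 0.35 ± 0.07 (adjusted p = 0.0392). Slc7a5, a transporter of large neutral amino acids, had 33.5, 40.9 and 40.3 FPKM in the Tgfbr2KO_Vehicle libraries and 60.5, 53.4 and 65.0 FPKM in Vehicle, and fell by 0.63 ± 0.10 (adjusted p = 0.0261). The fourth was the ATF4-related factor Atf5, with 181, 205 and 203 FPKM in Tgfbr2KO_Vehicle against 300, 262 and 370 FPKM in Vehicle (-0.65 ± 0.13, adjusted p = 0.0468). Members just short of a call had the same order of the groups. Pycr1, which makes proline, had 5.30, 4.44 and 6.39 FPKM in the Tgfbr2KO_Vehicle libraries and 9.61, 7.79 and 12.6 FPKM in Vehicle (adjusted p = 0.0593). Asns, asparagine synthetase, had 54.0, 58.4 and 68.9 FPKM in Tgfbr2KO_Vehicle against 83.8, 72.3 and 84.4 FPKM in Vehicle (adjusted p = 0.0561). Phgdh, the first enzyme of serine synthesis, had 92.9, 107 and 118 FPKM in the Tgfbr2KO_Vehicle libraries and 141, 134 and 127 FPKM in Vehicle (adjusted p = 0.0647). Outside the list, Nupr1, a stress-induced chromatin protein, had 92.1, 98.1 and 109 FPKM in Tgfbr2KO_Vehicle against 170, 127 and 169 FPKM in Vehicle, and fell by 0.62 ± 0.12 (adjusted p = 0.0455).

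The 8-letter pattern TGATGNAA, a core of the composite element that ATF4 and C/EBP factors bind, was searched on both strands in the 250 bases before each gene's start in RefSeq (GRCm38.p6). It was found in 6 of the 21 members of this list that had a promoter sequence (28.6%), against 2.30% of tested genes with one and 3.91% of all genes in the promoter table. The members with a match were Pycr1, Asns, Atf3, Chac1, Slc7a11 and Vldlr, so it was found in 0 of the 3 called members that had a promoter sequence. The list was drawn up to hold genes of the ATF4 response, so its share of matches does not bear on the falls. Among genes called lower the share was 4.23%, 3 of 71, and among genes called higher 5.66%, 3 of 53. The pattern and the promoters shown were chosen after the values were seen, and a match is a description of the letters. To show where the pattern lies, the 150 bases before the start follow for Asns, which was not called (GRCm38.p6 chr6:7693210-7693359, minus strand), with the match starting 23 bases before the start, and for Nupr1, which fell (chr7:126625471-126625620, minus strand), where it lies on the opposite strand and starts 110 bases before the start. Capitals mark the match.
Asns: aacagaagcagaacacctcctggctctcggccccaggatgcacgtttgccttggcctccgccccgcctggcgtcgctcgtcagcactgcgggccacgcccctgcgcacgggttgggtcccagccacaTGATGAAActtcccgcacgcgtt
Nupr1: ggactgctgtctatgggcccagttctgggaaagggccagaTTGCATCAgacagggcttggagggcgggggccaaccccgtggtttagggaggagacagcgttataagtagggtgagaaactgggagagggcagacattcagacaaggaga

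The list of 25 matrix proteases and inhibitors moved in both directions. Of 24 tested, 2 were called higher and 1 lower, against 0.564% and 0.817% of all tested genes. Their median log2 change was 0.04. In all 3 Tgfbr2KO_Vehicle libraries 7 lay above and 6 below every Vehicle library, against 14.9% and 15.8% of all tested genes. Mmp3, stromelysin 1, which cleaves proteoglycans and activates other matrix metalloproteinases, had 39.6, 26.3 and 11.7 FPKM in the Tgfbr2KO_Vehicle libraries and 4.87, 2.47 and 2.00 FPKM in Vehicle. It rose with a ratio of mean FPKM of 8.31 and a log2 change of 2.62 ± 0.48 (adjusted p = 0.0392). Mmp13, a collagenase, had 17.1, 8.24 and 4.34 FPKM in Tgfbr2KO_Vehicle against 1.34, 1.099 and 0.845 FPKM in Vehicle, and rose with a ratio of 9.03 and a log2 change of 2.21 ± 0.45 (adjusted p = 0.047). In both genes Tgfbr2KO_Vehicle replicate 1 was highest and replicate 3 lowest, and the groups did not overlap. Mmp10, stromelysin 2, had 143, 96.5 and 47.4 FPKM in the Tgfbr2KO_Vehicle libraries and 27.9, 17.4 and 9.20 FPKM in Vehicle, the same order without a call (2.32 ± 0.54, adjusted p = 0.0627). Plau, urokinase, had 277, 212 and 122 FPKM in Tgfbr2KO_Vehicle against 102, 105 and 55.5 FPKM in Vehicle (adjusted p = 0.158). Adamts12, a secreted metalloproteinase, went the other way, with 8.27, 10.8 and 9.31 FPKM in the Tgfbr2KO_Vehicle libraries and 22.4, 15.3 and 24.5 FPKM in Vehicle. It fell by 1.04 ± 0.17 on the log2 scale (adjusted p = 0.0293). Mmp14, the membrane-bound collagenase of fibroblasts, had 183, 191 and 190 FPKM in Tgfbr2KO_Vehicle against 239, 230 and 321 FPKM in Vehicle, without overlap and without a call (adjusted p = 0.0962). Slpi, a secreted inhibitor of serine proteases, had 150, 86.4 and 55.8 FPKM in the Tgfbr2KO_Vehicle libraries and 24.2, 19.7 and 9.30 FPKM in Vehicle, and rose with a ratio of 5.48 (log2 change 2.37 ± 0.48, adjusted p = 0.0468). Serpinb9b, an intracellular serpin, had 53.4, 46.6 and 37.7 FPKM in Tgfbr2KO_Vehicle against 17.1, 16.4 and 9.59 FPKM in Vehicle, and rose with a ratio of 3.20 (1.64 ± 0.30, adjusted p = 0.0392).

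The cornified envelope is the cross-linked protein shell of keratinocytes, and several of its genes were among the largest rises. Crct1, a gene of the epidermal differentiation complex, had 55.4, 26.3 and 19.3 FPKM in the Tgfbr2KO_Vehicle libraries and 1.83, 2.53 and 0.904 FPKM in Vehicle. It rose with a ratio of 19.2 and a log2 change of 3.56 ± 0.51 (adjusted p = 0.0248), the largest rise of the called genes. Sprr1a, a small proline-rich precursor of the envelope, had 21.2, 10.7 and 13.05 FPKM in Tgfbr2KO_Vehicle against 2.64, 4.37 and 1.92 FPKM in Vehicle (2.00 ± 0.36, adjusted p = 0.0369). Ivl, involucrin, had 7.20, 2.95 and 8.18 FPKM in the Tgfbr2KO_Vehicle libraries and 0.901, 1.38 and 0.241 FPKM in Vehicle (1.91 ± 0.36, adjusted p = 0.0392). For each of these 3 genes all Tgfbr2KO_Vehicle libraries were above all Vehicle libraries. Sprr2k, another small proline-rich gene, had 4.02, 2.74 and 5.71 FPKM in Tgfbr2KO_Vehicle against 1.06, 0.983 and 0.488 FPKM in Vehicle (1.46 ± 0.26, adjusted p = 0.0363). Sprr2h had 21.4, 6.35 and 5.68 FPKM in the Tgfbr2KO_Vehicle libraries and 0.357, 0.168 and 0.0930 FPKM in Vehicle and was not called (adjusted p = 0.0618). The Sprr2 genes are near-identical copies, so how their reads were shared out is uncertain. Of the 30 keratin and cornified envelope genes on the list, 9 were tested. Of these 2 were called higher (Sprr1a and Ivl) and 0 lower, against 0.564% and 0.817% of all tested genes. Among the keratins, Krt20 had 1.23, 1.23 and 1.56 FPKM in Tgfbr2KO_Vehicle against 0.558, 0.799 and 0.396 FPKM in Vehicle (adjusted p = 0.129). Krt20 and Sprr2h were under 1 FPKM in all 3 Vehicle libraries and met the filter only through Tgfbr2KO_Vehicle. The order of their groups was thus partly set by the filter. The list's median log2 change, 0.57, is that of Krt20 itself. The epithelial sum was high in Tgfbr2KO_Vehicle replicate 1, as given above. Its markers are mostly of simple epithelia, and the part of epithelial RNA in these levels was not tested. Leaving out single libraries moved the log2 change of Crct1 between 3.14 and 3.88 and its adjusted p between 0.0392 and 0.104, and no gene was called without Tgfbr2KO_Vehicle replicate 1 or without Vehicle replicate 3.

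**Figure D3:**
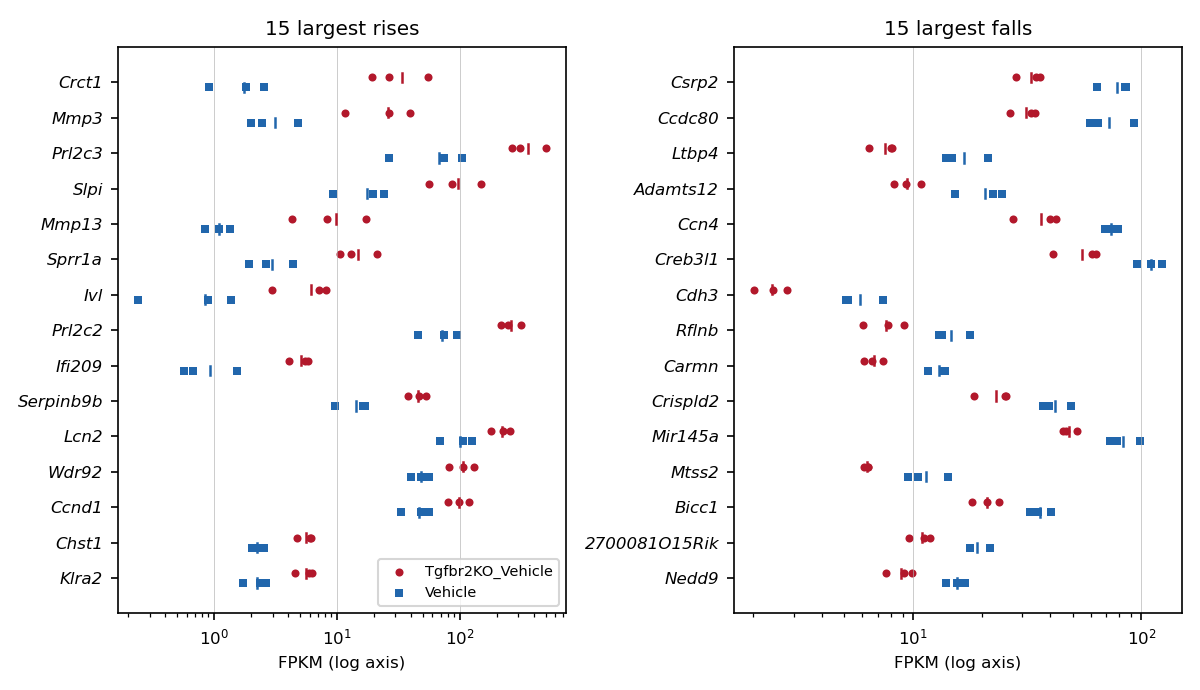
FPKM of called genes in the 6 libraries on log x axes, Tgfbr2KO_Vehicle above Vehicle, for the 15 largest rises (left) and the 15 largest falls (right), 1 gene per row, with 1 point per library and a line at the group mean. The groups overlap in no row, and the spread within Tgfbr2KO_Vehicle is wide for Mmp3 (11.7 to 39.6 FPKM) and narrow for Mtss2 (6.12 to 6.37 FPKM), an actin-regulating membrane protein.

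Mmp3, Mmp13, Ivl and Sprr1a hold the letter pattern of AP-1 elements close to their starts, and AP-1 is the dimer of FOS and JUN family factors. The 7-letter pattern TGANTCA was searched on both strands in the same 250-base windows. It was found in 11 of 53 genes called higher that had a promoter sequence (20.8%), and in 1 of 71 called lower (1.41%). Among genes called higher by at least 2-fold it was in 7 of 15 (46.7%), which were Ifi209, Ivl, Mmp13, Mmp3, Prl2c3, Sprr1a and Sprr2k. The share was 5.64% of tested genes with a promoter sequence and 7.82% of the whole table. The pattern was chosen after the values were seen, some of these genes are related copies, and no test was made. The 150 bases before the start are shown for Mmp3 (GRCm38.p6 chr9:7445672-7445821, plus strand), Mmp13 (chr9:7272364-7272513, plus strand), Ivl (chr3:92573736-92573885, minus strand) and Sprr1a (chr3:92485882-92486031, minus strand). Matches, in capitals, start 46, 35 and 116 bases before the start in Mmp3, Mmp13 and Ivl, and Sprr1a has a pair of matches that start 146 and 116 bases before it.
Mmp3: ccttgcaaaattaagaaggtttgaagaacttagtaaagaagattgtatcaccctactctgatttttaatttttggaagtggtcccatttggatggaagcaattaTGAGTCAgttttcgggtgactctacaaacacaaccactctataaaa
Mmp13: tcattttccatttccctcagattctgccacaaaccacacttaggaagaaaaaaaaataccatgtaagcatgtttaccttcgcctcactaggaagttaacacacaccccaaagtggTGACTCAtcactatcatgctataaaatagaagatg
Ivl: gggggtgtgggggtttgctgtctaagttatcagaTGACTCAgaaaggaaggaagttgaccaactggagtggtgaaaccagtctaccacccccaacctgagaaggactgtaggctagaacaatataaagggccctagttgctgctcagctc
Sprr1a: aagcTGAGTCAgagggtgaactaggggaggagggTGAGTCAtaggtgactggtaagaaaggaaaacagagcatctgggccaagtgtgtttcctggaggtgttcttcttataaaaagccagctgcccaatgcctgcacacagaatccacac

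The AP-1 factors themselves gave no call. Of 23 tested AP-1 and EGR immediate early genes, 0 were called by limma and 7 had an unadjusted p under 0.05, against 22.3% of all tested genes. The list's median log2 change was -0.01, with 12 members below 0 and 11 above. In all 3 Tgfbr2KO_Vehicle libraries 6 lay above and 5 below every Vehicle library, against 14.9% and 15.8% of all tested genes. The most positive log2 change of the list was that of Fosl1. Fosl1, the FOS family member FRA1, had 58.6, 45.6 and 40.3 FPKM in the Tgfbr2KO_Vehicle libraries and 24.5, 30.1 and 13.1 FPKM in Vehicle, without overlap (1.12 ± 0.32, adjusted p = 0.1005). The EGF receptor ligands Areg and Ereg were likewise above every Vehicle library without a call. Areg had 17.4, 9.40 and 5.21 FPKM in Tgfbr2KO_Vehicle against 2.80, 1.80 and 1.32 FPKM in Vehicle (1.86 ± 0.41, adjusted p = 0.0561). Ereg had 105, 86.9 and 57.2 FPKM in the Tgfbr2KO_Vehicle libraries and 49.6, 40.3 and 35.2 FPKM in Vehicle (0.95 ± 0.22, adjusted p = 0.0627).

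Prl2c3 and Prl2c2 encode proliferins, secreted hormones of the prolactin family. Prl2c3 had 501, 269 and 308 FPKM in Tgfbr2KO_Vehicle against 74.7, 104 and 26.5 FPKM in Vehicle (2.53 ± 0.46, adjusted p = 0.0375). Prl2c2 had 315, 217 and 249 FPKM in the Tgfbr2KO_Vehicle libraries and 75.2, 95.6 and 45.5 FPKM in Vehicle (1.88 ± 0.28, adjusted p = 0.0261), and Vehicle replicate 3 was lowest for both. These genes are near-identical copies, so the split of reads between them is uncertain, while both rose. Of 28 tested inflammatory fibroblast genes, 2 were called higher and 0 lower, 11 had all Tgfbr2KO_Vehicle libraries above all Vehicle libraries (14.9% of all tested genes did), and the median log2 change was 0.58. Lcn2, a lipocalin that binds bacterial siderophores, had 180, 226 and 257 FPKM in Tgfbr2KO_Vehicle against 126, 106 and 69.5 FPKM in Vehicle, and rose with a ratio of 2.20 (1.16 ± 0.23, adjusted p = 0.0428). Vcam1, an adhesion molecule for leukocytes, had 82.4, 81.6 and 73.1 FPKM in the Tgfbr2KO_Vehicle libraries and 53.2, 62.7 and 58.6 FPKM in Vehicle, and rose with a ratio of 1.36 (0.44 ± 0.08, adjusted p = 0.0364). The cytokine genes were not called. Il6 had 84.3, 115 and 92.5 FPKM in Tgfbr2KO_Vehicle against 66.2, 71.8 and 59.2 FPKM in Vehicle (adjusted p = 0.158), without overlap. The neutrophil chemokine gene Cxcl1 had 447, 330 and 261 FPKM in the Tgfbr2KO_Vehicle libraries and 256, 189 and 95.6 FPKM in Vehicle (adjusted p = 0.134). Ptgs2, the inducible cyclooxygenase, had 818, 624 and 515 FPKM in Tgfbr2KO_Vehicle against 409, 441 and 210 FPKM in Vehicle (adjusted p = 0.159). The largest log2 change of all tested genes, 4.44 ± 1.06, was that of S100a8, a calcium-binding protein of neutrophils and stressed epithelia, which had 219, 122 and 39.5 FPKM in the Tgfbr2KO_Vehicle libraries and 11.2, 4.05 and 0.727 FPKM in Vehicle, and it was not called (adjusted p = 0.0681). The leukocyte sum, which includes S100a8 itself, overlapped between the groups, and the pan-leukocyte gene Ptprc was at most 1.77 FPKM in the 6 libraries. The part of leukocyte RNA in these levels was not tested.

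Further rises lay outside these groups. Ifi209, an interferon-inducible gene of the HIN-200 family, had 5.46, 4.11 and 5.77 FPKM in Tgfbr2KO_Vehicle against 1.53, 0.668 and 0.575 FPKM in Vehicle, and rose with a ratio of 5.54 (1.69 ± 0.18, adjusted p = 0.00984). The list of 22 tested interferon response genes held 0 calls by limma, with a median log2 change of -0.14. It held 1 gene at an unadjusted p under 0.05 in limma, against 22.3% of all tested genes. Nlrc5, the transactivator of MHC class I genes, was low, at 1.05, 1.13 and 1.35 FPKM in the Tgfbr2KO_Vehicle libraries and 0.362, 0.262 and 0.350 FPKM in Vehicle (0.71 ± 0.11, adjusted p = 0.0261). It met the filter only through the Tgfbr2KO_Vehicle libraries, so its call is not set against the list. The other 18 of 19 tested genes of MHC class I and antigen processing held 0 calls by limma, and the list's median log2 change was -0.09. Il13ra2, a decoy receptor for interleukin 13, had 13.1, 17.2 and 16.2 FPKM in Tgfbr2KO_Vehicle against 10.3, 8.69 and 6.68 FPKM in Vehicle (0.80 ± 0.14, adjusted p = 0.0364). Klra2, a lectin-like receptor of the Ly49 family, had 6.29, 5.90 and 4.54 FPKM in the Tgfbr2KO_Vehicle libraries and 2.39, 2.65 and 1.72 FPKM in Vehicle (1.02 ± 0.18, adjusted p = 0.0348). Chst1, a sulfotransferase of keratan sulfate, had 6.03, 6.16 and 4.72 FPKM in Tgfbr2KO_Vehicle against 2.02, 2.53 and 2.22 FPKM in Vehicle (1.02 ± 0.13, adjusted p = 0.0235). Wdr92, a WD-repeat protein, had 130, 107 and 82.6 FPKM in the Tgfbr2KO_Vehicle libraries and 56.7, 48.1 and 40.3 FPKM in Vehicle (1.11 ± 0.21, adjusted p = 0.0392).

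BMP ligands signal through SMAD1, SMAD5 and SMAD9, and the ID genes are their direct targets. Of 16 tested BMP-SMAD targets, 2 were called higher and 0 lower, with a median log2 change of 0.33. In this list 6 had all Tgfbr2KO_Vehicle libraries above all Vehicle libraries, against 14.9% of all tested genes. Id1 had 93.6, 87.3 and 101 FPKM in Tgfbr2KO_Vehicle against 61.7, 61.1 and 48.4 FPKM in Vehicle, and rose with a ratio of 1.65 (0.71 ± 0.12, adjusted p = 0.0293). Id3 had 292, 269 and 257 FPKM in the Tgfbr2KO_Vehicle libraries and 204, 225 and 200 FPKM in Vehicle, and rose with a ratio of 1.30 (0.37 ± 0.08, adjusted p = 0.0468). Both encode inhibitors of helix-loop-helix transcription factors, and neither gene's groups overlapped. Id2 had 36.1, 40.3 and 36.5 FPKM in Tgfbr2KO_Vehicle against 28.0, 27.8 and 28.5 FPKM in Vehicle (adjusted p = 0.309), and Id4 had 8.66, 7.74 and 5.78 FPKM and 5.47, 5.51 and 5.27 FPKM (adjusted p = 0.158) in those groups. Bmp4, a ligand of this pathway, had 20.2, 25.7 and 14.8 FPKM in the Tgfbr2KO_Vehicle libraries and 20.3, 13.96 and 12.2 FPKM in Vehicle, with overlap. Grem1, a secreted BMP antagonist of the crypt base, had 812, 819 and 690 FPKM in Tgfbr2KO_Vehicle against 789, 642 and 740 FPKM in Vehicle, with overlap and a log2 change of 0.10 ± 0.15. Rspo3, a WNT agonist for crypt stem cells, had 4.10, 7.52 and 9.66 FPKM in the Tgfbr2KO_Vehicle libraries and 8.98, 7.97 and 17.5 FPKM in Vehicle, with overlap. The 16 tested niche factors and WNT agonists held 0 calls by limma and 6 genes at an unadjusted p under 0.05, against 22.3% of all tested genes. The list's median log2 change was -0.02.

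Ccnd1, cyclin D1, which drives entry into the cell cycle, had 119, 80.3 and 98.3 FPKM in Tgfbr2KO_Vehicle against 56.6, 48.7 and 33.6 FPKM in Vehicle. It rose with a ratio of 2.14 (1.098 ± 0.23, adjusted p = 0.0480), and was the 1 call among 10 tested WNT pathway targets. The 30 genes of the cell cycle list, mostly of S phase and mitosis, held 0 calls by limma and had a median log2 change of -0.01. At an unadjusted p under 0.05 in limma the list held 1 gene, against 22.3% of all tested genes. Among 19 tested cyclin-dependent kinase inhibitors and p53 targets 0 were called by limma and 10 had an unadjusted p under 0.05. Pmaip1, which encodes the p53-induced cell death protein NOXA and is not on that list, had 27.6, 23.01 and 25.5 FPKM in the Tgfbr2KO_Vehicle libraries and 13.4, 14.9 and 11.3 FPKM in Vehicle, and rose with a ratio of 1.92 (0.90 ± 0.18, adjusted p = 0.0478). Nfe2l2, the transcription factor NRF2 that controls antioxidant genes, had 73.2, 74.2 and 75.7 FPKM in Tgfbr2KO_Vehicle against 61.4, 56.4 and 57.9 FPKM in Vehicle, and rose with a ratio of 1.27 (0.34 ± 0.06, adjusted p = 0.0327). Of 22 antioxidant enzymes, 10 had all Tgfbr2KO_Vehicle libraries above all Vehicle libraries, against 14.9% of all tested genes. In this list 0 were called higher and 1 was called lower, with a median log2 change of 0.30. Hmox1, heme oxygenase 1, had 566, 375 and 312 FPKM in the Tgfbr2KO_Vehicle libraries and 220, 196 and 133 FPKM in Vehicle (1.17 ± 0.35, adjusted p = 0.112). Nqo1, a quinone reductase, had 64.3, 41.4 and 34.3 FPKM in Tgfbr2KO_Vehicle against 22.7, 26.002 and 14.1 FPKM in Vehicle (1.12 ± 0.35, adjusted p = 0.117). Both are known NRF2 targets, and in both Tgfbr2KO_Vehicle replicate 1 was highest. The gene called lower was Gpx7, a peroxidase of the endoplasmic reticulum where collagen is folded, at 29.6, 35.5 and 35.4 FPKM in the Tgfbr2KO_Vehicle libraries and 56.3, 47.5 and 55.1 FPKM in Vehicle (-0.65 ± 0.11, adjusted p = 0.0341).

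**Figure D4:**
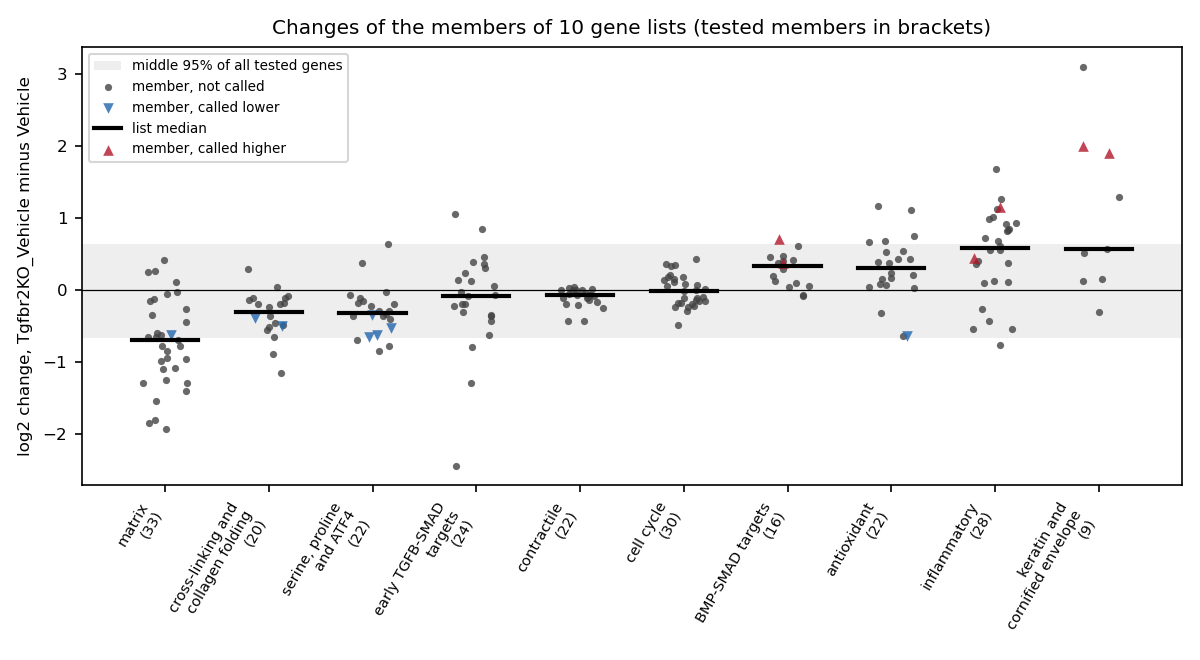
Log2 changes, Tgfbr2KO_Vehicle minus Vehicle, of the tested members of 10 gene lists on the y axis, with 1 column per list, 1 point per gene, triangles for called genes, a bar at the list's median and a grey band for the middle 95% of all tested genes (-0.67 to 0.64). The medians run from -0.70 for fibrillar matrix to 0.58 for inflammatory fibroblast genes, and called members are few in every list.

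The contractile apparatus of myofibroblasts gave no call, with 0 of 22 genes by limma and a median log2 change of -0.08. An unadjusted p under 0.05 in limma was reached by 1 of them, against 22.3% of all tested genes. Acta2, smooth muscle actin, had 1803, 1742 and 1788 FPKM in Tgfbr2KO_Vehicle against 2022, 1945 and 1657 FPKM in Vehicle, with overlap and a log2 change of -0.07 ± 0.14. Csrp2, named above, was the largest fall among called genes that averaged 5 FPKM or more in either group, with 28.2, 34.5 and 36.1 FPKM in the Tgfbr2KO_Vehicle libraries and 84.7, 64.1 and 86.0 FPKM in Vehicle (-1.22 ± 0.16, adjusted p = 0.0239). Carmn, a long noncoding RNA of smooth muscle cells, had 7.43, 6.64 and 6.12 FPKM in Tgfbr2KO_Vehicle against 11.6, 13.5 and 13.7 FPKM in Vehicle (-0.85 ± 0.12, adjusted p = 0.0239). Mir145a, a microRNA gene hosted by Carmn, had 45.5, 52.5 and 46.7 FPKM in the Tgfbr2KO_Vehicle libraries and 78.0, 72.7 and 98.7 FPKM in Vehicle (-0.76 ± 0.13, adjusted p = 0.0348). Reads of the host transcript and of the microRNA precursor cannot be told apart in these libraries, so these count as 1 observation. Rflnb, a filamin-binding protein, had 6.03, 7.74 and 9.15 FPKM in Tgfbr2KO_Vehicle against 13.4, 13.002 and 17.7 FPKM in Vehicle (-0.87 ± 0.16, adjusted p = 0.0392). Nedd9, a scaffold protein of focal adhesions, had 7.60, 9.89 and 9.16 FPKM in the Tgfbr2KO_Vehicle libraries and 15.6, 13.99 and 16.9 FPKM in Vehicle (-0.74 ± 0.10, adjusted p = 0.0241). Cdh3, the adhesion protein P-cadherin, had 2.01, 2.81 and 2.43 FPKM in Tgfbr2KO_Vehicle against 5.09, 5.20 and 7.37 FPKM in Vehicle (-1.0003 ± 0.19, adjusted p = 0.0423). Pdgfra, the receptor gene that the reporter is named for, had 48.3, 75.3 and 99.8 FPKM in the Tgfbr2KO_Vehicle libraries and 137, 125 and 165 FPKM in Vehicle, without overlap and without a call (-0.98 ± 0.38, adjusted p = 0.173). Cd34, a surface marker of stromal subsets, had 31.7, 47.5 and 112 FPKM in Tgfbr2KO_Vehicle against 72.0, 59.6 and 86.7 FPKM in Vehicle, with overlap.

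Smaller changes lay in other groups. Runx1, a transcription factor, was the 1 call among 20 tested mesenchymal transcription factors, with 13.4, 14.1 and 12.7 FPKM in the Tgfbr2KO_Vehicle libraries and 18.3, 16.4 and 16.7 FPKM in Vehicle (-0.34 ± 0.07, adjusted p = 0.0428). Among 24 tested axon guidance genes, Sema3c rose and Efnb1 fell, with log2 changes of 0.69 ± 0.14 and -0.35 ± 0.07 (adjusted p = 0.0483 and 0.0485). Bicc1, an RNA-binding protein, had 18.2, 23.9 and 21.1 FPKM in Tgfbr2KO_Vehicle against 35.3, 32.5 and 40.4 FPKM in Vehicle (-0.75 ± 0.15, adjusted p = 0.0468). Mtss2 and the unnamed transcript 2700081O15Rik each fell by 0.75 on the log2 scale (adjusted p = 0.0355 and 0.0468). Fzd2, a WNT receptor, had 16.0, 18.9 and 21.3 FPKM in the Tgfbr2KO_Vehicle libraries and 28.7, 28.6 and 34.2 FPKM in Vehicle (-0.68 ± 0.13, adjusted p = 0.0392). In lipid metabolism, Plin2, a coat protein of lipid droplets, had 125, 117 and 120 FPKM in Tgfbr2KO_Vehicle against 80.9, 75.9 and 64.0 FPKM in Vehicle (0.71 ± 0.14, adjusted p = 0.0468). Sc5d, a late enzyme of cholesterol synthesis, had 49.4, 45.7 and 45.3 FPKM in the Tgfbr2KO_Vehicle libraries and 32.9, 33.9 and 27.4 FPKM in Vehicle (0.57 ± 0.10, adjusted p = 0.0348), while 21 of the 24 genes of that pathway had a negative log2 change and 0 were called lower. Of 30 cytosolic ribosomal protein genes 3 were called lower, against 0.817% of all tested genes. These were Rps14, Rps19 and Rpl27, lower by 0.23 to 0.41 on the log2 scale, and the median of the list was -0.10. The list of 30 respiratory chain subunits held 0 calls by limma and 3 genes at an unadjusted p under 0.05, against 22.3% of all tested genes. The list's median log2 change was 0.00. In all, 16 of the 44 lists held a call, that of Nlrc5 included, 9 of them a higher and 9 a lower one, with matrix proteases and axon guidance counted in both, and 28 held none.

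The comparison TGFB1 minus Vehicle uses the same Vehicle libraries, so its values are set beside those above and not correlated with them. Several genes that fell in Tgfbr2KO_Vehicle were high in TGFB1. Ltbp4 had 6.91, 9.33 and 12.3 FPKM in Tgfbr2KO_TGFB1 and 32.7, 41.4 and 36.5 FPKM in TGFB1. Col6a3 had 103, 99.0 and 104 FPKM in Tgfbr2KO_TGFB1 and 232, 261 and 242 FPKM in TGFB1. Adamts12 had 11.1, 13.5 and 15.8 FPKM in Tgfbr2KO_TGFB1 and 52.7, 47.8 and 49.4 FPKM in TGFB1. In these 3 genes every TGFB1 library was above every Vehicle library. The Tgfbr2KO_TGFB1 libraries lay below every Vehicle library for Ltbp4 and Col6a3 and overlapped Vehicle for Adamts12. Others did not run this way. Carmn had 5.30, 6.87 and 6.74 FPKM in Tgfbr2KO_TGFB1 and 8.58, 7.54 and 6.66 FPKM in TGFB1, so it was below the Vehicle level of 11.6 to 13.7 FPKM in all 3 other groups. Bicc1 had 21.4, 24.9 and 33.0 FPKM in Tgfbr2KO_TGFB1 and 22.3, 22.7 and 19.5 FPKM in TGFB1, and Mir145a had 32.8, 31.4 and 31.99 FPKM and 42.6, 31.4 and 43.2 FPKM in those groups.

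Among the rises, Lcn2 had 267, 268 and 369 FPKM in Tgfbr2KO_TGFB1 and 0.457, 0.0995 and 0.0919 FPKM in TGFB1. Mmp3 had 35.9, 34.3 and 11.6 FPKM in Tgfbr2KO_TGFB1 and 0.0348, 0.112 and 0.315 FPKM in TGFB1, and Slpi had 140, 80.7 and 42.5 FPKM and 0.0854, 0.557 and 0.344 FPKM in those groups. These 3 genes thus lay at intermediate levels in Vehicle, above TGFB1 and below both knockout groups. Crct1 and Mmp13 were different, with 3.12 to 4.06 and 2.04 to 4.01 FPKM in TGFB1, above every Vehicle library. Pmaip1 was high both in the knockout and with ligand, at 61.1 to 68.6 FPKM in TGFB1 against 11.3 to 14.9 FPKM in Vehicle, and Plin2 was at 141 to 151 FPKM in TGFB1 against 64.0 to 80.9 FPKM in Vehicle. Id1 had 86.4, 71.9 and 85.0 FPKM in Tgfbr2KO_TGFB1 and 17.7, 16.3 and 20.3 FPKM in TGFB1.

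**Figure D5:**
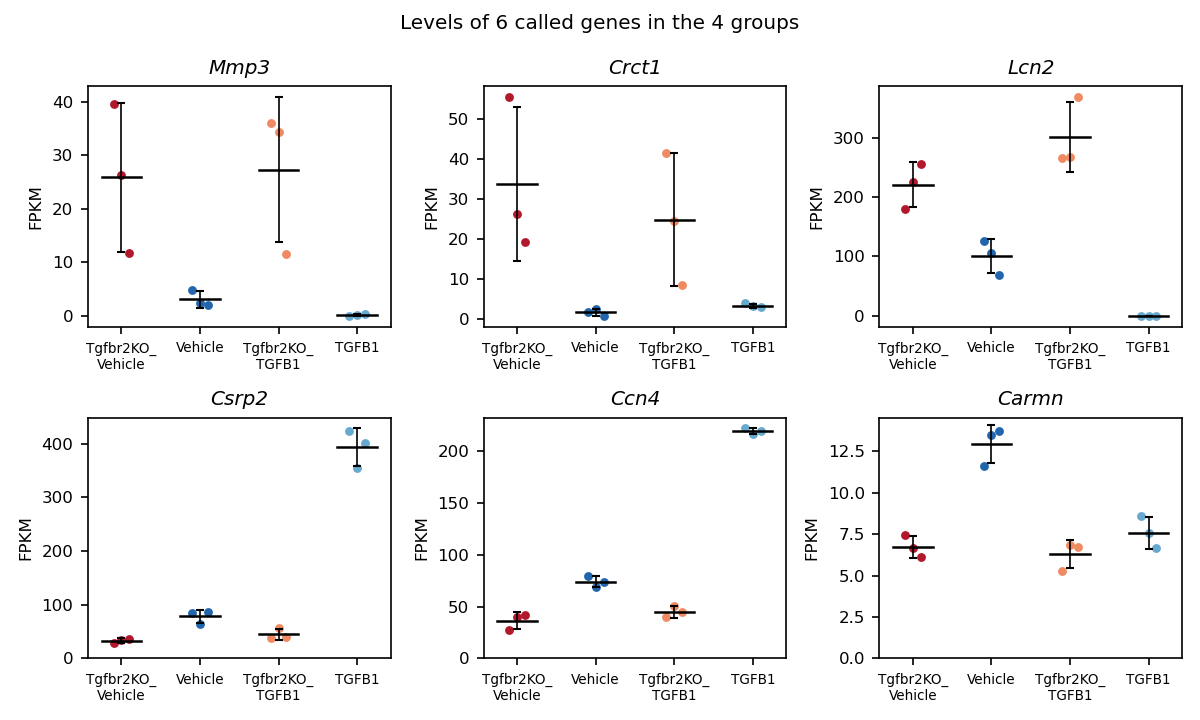
FPKM of called genes in all 12 libraries, in the order Tgfbr2KO_Vehicle, Vehicle, Tgfbr2KO_TGFB1 and TGFB1 within each panel, with 1 point per library, the group mean as a line and the SD as a bar (n = 3). Csrp2 is at 354 to 424 FPKM in TGFB1 and at 28.2 to 86.0 FPKM in the other groups, Lcn2 is near 0 only in TGFB1, and Carmn is highest in Vehicle.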

How the data were processed

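Values are FPKM per gene symbol, in a single table as the authors deposited it. Per the labels' protocols, column-purified RNA was selected with poly-T beads before libraries were made by a sequencing provider, and per the submitters' processing notes kallisto 0.46.1, DESeq2 1.40.1 and the build mm9 were used. How these tools gave FPKM, and any scaling between libraries, is not given in the sources used here. Read counts were not used, absolute depth is unknown, and relative depth was read from the FPKM steps of genes below 0.5 FPKM.

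From these values, log2(FPKM + 1) was fitted in R 4.3.3 with limma 3.58.1 (group means of all 12 libraries, 8 residual degrees of freedom, variance trend), and Tgfbr2KO_Vehicle was contrasted with Vehicle with Benjamini-Hochberg adjustment over the tested genes. Log2 changes had a median SE of 0.107 and a median 95% half-interval of 0.237. The script was tested on simulated data. Figures were drawn with Python 3.11.15, numpy 2.4.6, pandas 2.3.3 and matplotlib 3.10.9.

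The members, the 44 gene lists (36 of pathways, 8 of cell types) and the tests were chosen with earlier results of these data known. The genes named are the 15 largest rises and 15 largest falls among called genes with no overlap and a group mean of at least 5 FPKM, of each list at most 4 called members, and 20 genes fixed by name. Every other gene named was chosen after its values were seen. Promoter sequences are from RefSeq on GRCm38.p6, matched by symbol for 9595 of the tested genes, and since that build differs from mm9 no position is tied to the reads. The alternatives were a fit to the 6 libraries, a replicate block, pseudocounts of 0.1 and 0.5, other filters, upper-quartile scaling, no variance trend and leaving out each library, and the joint omission of both least alike libraries and a fit with libraries of 1 genotype and number correlated were added after seeing the data.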

Additional observations from a re-analysis of the deposited data

How the results depend on the processing

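Of the 169 calls (69 higher, 100 lower, 27 at least 2-fold), the fit to the 6 vehicle libraries alone kept 0 (0 higher, 0 lower, 0 at least 2-fold; smallest adjusted p 0.112 in limma, 2682 genes at an unadjusted p under 0.05). Without a filter on low values 19932 genes were tested and 77 called (29 higher, 48 lower, 9 at least 2-fold), and without the variance trend 55 were called higher and 66 lower. Pseudocounts of 0.1 and 0.5, the filter over 12 libraries and upper-quartile scaling gave 141, 148, 157 and 157 calls. Leaving out single libraries gave 0 to 86 calls (0 to 31 higher, 0 to 55 lower, 0 to 23 at least 2-fold), and leaving out Tgfbr2KO_Vehicle replicate 1 and Vehicle replicate 3 together gave 0 calls (0 higher, 0 lower, 0 at least 2-fold) with 1006 genes at an unadjusted p under 0.05 and a smallest adjusted p of 0.202. With libraries of 1 genotype and number correlated, also added after seeing the data, 164 were called (72 higher, 92 lower, 30 at least 2-fold). In each of these settings all 169 genes kept their direction and an unadjusted p under 0.05. Neither is a separate check. The groups overlapped in none of the 169, so leaving out libraries could not change a direction. The genes were also chosen for a small p in these same libraries. The cause of the lost calls was not tested. Among genes not called, single omissions moved the log2 change of Tgfb2 between -0.21 and 0.20, Tgfb3 between -0.23 and 0.22, Cd34 between -0.87 and 0.018, Ccn2 between -0.20 and 0.21, Lyz2 between -1.18 and 1.03 and Csf1r between -0.93 and 0.17. Upper-quartile scaling gave -0.0016 for Tgfb2. With both libraries left out the values were 0.067 for Tgfbr3, -0.36 for Tgfb2, -0.015 for Smad7, 0.15 for Cd34, -0.32 for Ccn2, 0.0099 for Rspo3 and 0.39 for Csf1r.

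Both groups carry the replicate numbers 1 to 3, which go with 3 other numbers that the library names of all 4 groups share, and the labels give the meaning of neither. Between the 2 vehicle groups, deviations from the group means correlated at 0.367, -0.0838 and 0.422 between same-numbered libraries. Tgfbr2KO_Vehicle replicate 2 correlated best with Vehicle replicate 3 (0.137), so the numbers were not taken to pair these groups. That choice rests on replicate 2, since replicates 1 and 3 correlated best with the same-numbered library in every pair of groups. The number of calls depends on it. Between Tgfbr2KO_TGFB1 and Vehicle the values were 0.430, 0.183 and 0.628, so whether the numbers link libraries across genotype was not settled. With the replicate block, the fit to 12 libraries called 1911 genes (896 higher, 1015 lower, 174 at least 2-fold), all 169 among them, and the fit to the 6 vehicle libraries called 189 (106 higher, 83 lower, 86 at least 2-fold), 33 of the 169 among them. In the blocked fit to 12 libraries the adjusted p was 0.0437 for Tgfbr2, 0.0115 for Col1a1, 0.0200 for Col1a2 and 0.0164 for Col3a1. Absolute depth is unknown, so a limit of detection for genes at 0 cannot be given.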
